A study of Cricetiscus sungorus with 24 samples.

Results

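The kidney transcriptome described here is that of 6 Djungarian hamsters (Phodopus sungorus) given vehicle injections, the SAL group of experiment 2. The members were all libraries of that group, 6 of the 24 in the series, with no contrast to any other group. Adult females were moved to a short photoperiod (SP, 8 h of light per day) for 8 weeks and then injected intraperitoneally on 3 days with a mixture of DMSO and saline in equal parts. The labels call this saline treatment, and they name no strain beyond the species and no age beyond adult. The animals were killed within hours of lights-on, and RNA came from the piece of frozen kidney that was not cut into sections, so that all segments of the nephron and the cells around it were mixed. The libraries are named SAL 1 to SAL 6 after the sample numbers, which carry no order.

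Each kidney is built of nephrons. Blood is filtered in the glomerulus, whose filter is held by podocytes, and the proximal tubule then takes back most of the salt, water, glucose, amino acids and filtered protein. The thin and thick limbs of Henle's loop build the salt gradient of the medulla, and the distal tubule and collecting duct set the final salt, water and acid content of urine. The proximal tubule runs on mitochondrial fuel oxidation, and it also makes glucose and handles drugs.

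Reads were counted on mouse transcripts, because the hamster reads had been aligned to the mouse genome. For each gene the transcript with the highest total over the 6 libraries was taken. The table listed 15842 genes, of which 14449 had a count in at least 1 SAL library and 6691 had a count in all 6. In a single library, 9600 to 11293 genes were counted. With 1 transcript per gene, the library totals were between 219043 and 531796 counts, with a median of 348439. A single count was thus worth 1.88 to 4.57 CPM (the count of a gene divided by the total of its library, times 1000000), and the limit that a count of 0 allows (3 counts) was 5.64 to 13.7 CPM in a library and 1.40 CPM over the 6 libraries together. Means are given ± SD over the 6 animals. Each animal gave 1 library, so spread among animals cannot be told apart from spread that arose with the tissue piece or the library. A share is the percentage of the counts of a library. Shares and CPM were not divided by transcript length, so an order of genes is an order of reads taken and not of RNA level per length.

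SAL 6 stood apart from the other libraries, and this has to be known before the shares are read. Its rank correlation with the other libraries was the lowest (median 0.795), though SAL 3 lay close to it with 0.808. In genes with a mean of at least 10 counts the median was 0.807 for SAL 6 and 0.854 for SAL 5, the next lowest. The pair of SAL 5 and SAL 6 had 0.880 in these genes. A search made for SAL 6 alone found 16 genes more than 5 times as high there as in any other library. Their high share in SAL 6 follows from this choice, and whether 1 read was counted on several of them was not tested. These genes took 5.17% of SAL 6 (95% Wilson interval 5.09 to 5.25%, counting error only) and 0.164 to 0.519% of the other 5 libraries. Every other gene of SAL 6 therefore had a smaller share to divide. The CVs, the ratios between libraries and the rank correlations are therefore also given without SAL 6, and the mean shares of the lists without it lay within 1 SD of those printed here.

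The reads were spread over many genes. The 10 genes with the highest mean share took 7.11% of the counts, the 30 highest took 16.1%, the 100 highest took 35.6%, and the 1000 highest took 80.2%. Taken library by library, 165 to 226 genes were enough to reach 50% of the counts, and 198 genes were enough over the mean of the 6. A total of 226 genes had a mean over 1000 CPM. At the other end, 6459 of the genes with a count had 10 or fewer counts in all 6 libraries together. The plot of cumulative share shows nearly the same curve for every library.

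**Figure D1:**
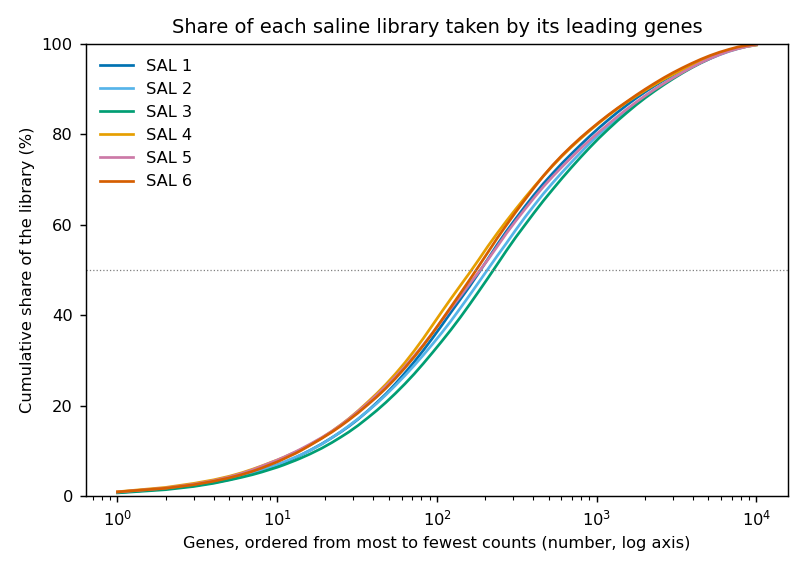
Cumulative share of the counts (%, vertical axis) taken by the genes of each library in order from most to fewest counts (horizontal axis, log scale), 1 line per library and with 1 transcript per gene. The lines run close together and cross 50% at 165 genes in SAL 4 and at 226 genes in SAL 3.

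Among the genes counted, those with the most reads encoded short housekeeping proteins of the ribosome and the respiratory chain rather than transporters of the tubule. Among the 30 genes with the highest mean share, 11 were in the list of cytosolic ribosomal proteins and 6 in the list of oxidative phosphorylation. The other lists held 4 of them, which were Fth1, Prdx1, Hbb-bs and Hbb-bt, and 9 were in none of the lists. None of the 30 was encoded by the mitochondrial genome, and whether reads of that genome were counted was not analysed here.

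Rps27, a protein of the small ribosomal subunit, held rank 1 with a mean of 7708 ± 1117 CPM (lowest 6355, median 7613, highest 9598 CPM). Cox7c, a small subunit of cytochrome c oxidase, had 7604 ± 537 CPM (lowest 6786, median 7831, highest 8116 CPM). Atp5md, a small membrane subunit of ATP synthase, had 7578 ± 1428 CPM, with 5739 CPM in SAL 3 and 9404 CPM in SAL 6. These means lie within 1 SD of each other, so their order is not set by these 6 animals. Rps29, another protein of the small subunit, followed with 6713 ± 1482 CPM (4722 to 8401 CPM). Ndufa4, counted among the subunits of the respiratory chain, had 6127 ± 317 CPM (lowest 5775, median 6030, highest 6543 CPM) and was the steadiest of the 30 genes. Its coefficient of variation (CV, the SD as a percentage of the mean) was 4.68% after the part due to counting had been taken off. The ATP synthase subunits Atp5j2 and Atp5l had 5670 ± 625 and 5205 ± 561 CPM, and Atp5mpl, a further small protein of that complex, had 3976 ± 523 CPM. Cox7a2 of cytochrome c oxidase (5204 ± 685 CPM) and Uqcrq of the cytochrome bc1 complex (4212 ± 427 CPM) completed the respiratory genes among the 30. The remaining ribosomal protein genes among the 30 were Fau, Rpl37, Rps24, Rps14, Rpl13a, Rplp1, Rpl11, Rps25 and Rpl39, with means between 3994 CPM for Rpl39 and 5326 CPM for Fau.

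Among the 30 were also Dbi, Fth1, Prdx1 and Dnase1, which serve other functions of the cell. Dbi, which binds acyl-CoA, had 4752 ± 301 CPM (lowest 4427, median 4698, highest 5186 CPM) and differed little among the animals. Fth1, the heavy chain of the iron store ferritin, had 4554 ± 573 CPM (lowest 3931, median 4508, highest 5442 CPM). Prdx1, a peroxiredoxin that removes hydrogen peroxide, had 4514 ± 1453 CPM. Its values lay in a high and a low range, with 5532 to 6236 CPM in SAL 1, SAL 2 and SAL 3 and 2877 to 3618 CPM in SAL 4, SAL 5 and SAL 6. Dnase1, a secreted endonuclease that the kidney releases into urine, had 4118 ± 1592 CPM, from 2324 CPM in SAL 6 through a median of 3934 CPM to 6618 CPM in SAL 2. Among the 30 genes, Dnase1 had the highest CV beyond counting, at 38.6%.

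Several of the 30 genes cannot be told apart by their counts. Rps27 and Rps27rt had identical counts throughout, and so had Cox7c and Gm12338. Cox7c-ps1, a copy named after Cox7c, differed from it by at most 0.751% in a library. The pairs Hbb-bs with Hbb-bt and Rpl39 with Gm14541 differed by at most 0.397% and 0.440%. In all, 9 of the 30 genes and 30 of the 100 highest had another gene within 5% in every library, against 213 of the 3060 genes (6.96%) with a mean of at least 10 counts. The sources used here do not say how a read was divided among such genes, so the separate shares of these genes are uncertain. Rpl37rt, named as a retrotransposed copy of Rpl37, had 6755 ± 1686 CPM beside 5233 ± 1300 CPM for Rpl37, and both were highest in SAL 4 and SAL 5.

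**Figure D2:**
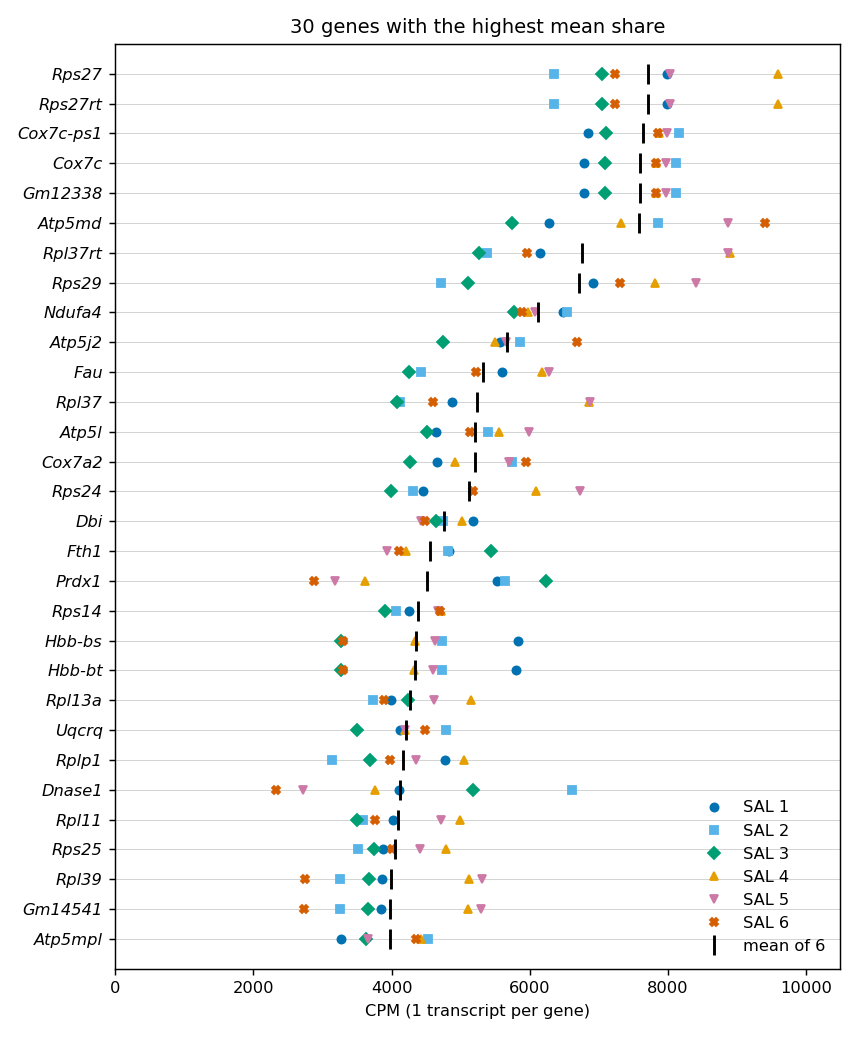
CPM (horizontal axis, linear, 1 transcript per gene) of the 30 genes with the highest mean share, 1 symbol per library and a black bar for the mean of the 6. Ndufa4 and Dbi form tight groups, whereas Prdx1 runs from 2877 to 6236 CPM and Dnase1 from 2324 to 6618 CPM.

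Genes were then grouped into 22 lists by function and 16 lists of cell type markers. A gene may be in more than 1 list, so the shares of the lists cannot be added up. Members that the table did not list were not analysed here.

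Protein synthesis was the function with the largest share. All 80 cytosolic ribosomal protein genes had a count in every library and took 17.8 ± 2.13% of the counts, from 15.1% in SAL 2 to 20.9% in SAL 4, with a median of 17.7%. Their single means ran from 203 CPM to the 7708 CPM of Rps27. The 20 translation factors took 0.922 ± 0.0426%, the list with the smallest relative spread (CV 4.61%). Its leading members were Eef1a1, the elongation factor that brings transfer RNA to the ribosome (2089 ± 268 CPM), Tpt1 (1676 ± 134 CPM) and the initiation factor Eif1 (1063 ± 135 CPM).

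Energy metabolism came next. The 79 genes of oxidative phosphorylation with a count took 12.1 ± 0.795% (lowest 11.3% in SAL 3, median 11.8%, highest 13.5% in SAL 2), and 78 of them had a count in every library. This list had been fixed with 95 genes, of which 79 were listed, so the share leaves out the rest. The 34 genes of fatty acid oxidation and ketone synthesis took 0.623 ± 0.114%, with Fabp3, a cytosolic fatty acid carrier, ahead at 1569 ± 173 CPM. Behind it stood the subunits of the electron transfer flavoprotein, Etfb at 712 ± 180 CPM and Etfa at 503 ± 135 CPM. Gluconeogenesis and glycolysis took 0.492 ± 0.143%. Fbp1, which removes a phosphate on the way to glucose, had 680 ± 260 CPM, and the glycolytic aldolase Aldoa had 522 ± 101 CPM. Carriers of the mitochondrial inner membrane took 0.424 ± 0.0865%, led by the ADP/ATP carriers Slc25a5 (1063 ± 270 CPM) and Slc25a4 (871 ± 199 CPM) and by Mpc2 of the pyruvate carrier (718 ± 136 CPM). The 19 citrate cycle genes took 0.305 ± 0.0683%. Suclg1, a subunit of succinate-CoA ligase, had 780 ± 159 CPM, and the malate dehydrogenases Mdh1 and Mdh2 had 451 ± 180 and 248 ± 65.6 CPM.

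Defence against oxidants was the function with the third largest share. The 44 antioxidant and glutathione enzymes with a count took 2.74 ± 0.624%, from 1.96% in SAL 6 through a median of 2.87% to 3.34% in SAL 3. Prdx1 led, followed by Gpx3, the glutathione peroxidase that the proximal tubule releases into plasma, with 3973 ± 1119 CPM (2669 CPM in SAL 6 to 5310 CPM in SAL 1). Gsta2, a glutathione transferase, had 3611 ± 886 CPM, and Gm10639 had nearly the same counts. Iron storage and metallothioneins took 0.534 ± 0.0628%, almost all of it in Fth1. Ftl1, the light chain of ferritin, had 511 ± 112 CPM and Mt1, a metallothionein, had 79.4 ± 34.0 CPM.

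Drug and steroid metabolism took 0.668 ± 0.219%, from 0.379% in SAL 6 through a median of 0.679% to 0.978% in SAL 3. Adh1, an alcohol dehydrogenase, had 1163 ± 556 CPM with 490 CPM in SAL 6 and 1867 CPM in SAL 3. Akr1a1, an aldehyde reductase, had 1003 ± 190 CPM, and the electron carrier Cyb5a had 878 ± 220 CPM. Of its members, Cyp2j5, Cyp2j11 and Cyp1b1 had no count in any SAL library. Amino acid and creatine metabolism took 0.563 ± 0.165%, from 0.339% in SAL 6 to 0.793% in SAL 3. Miox, which opens the ring of inositol and is known from the proximal tubule, had 496 ± 187 CPM and Oat of ornithine metabolism had 466 ± 223 CPM. Bhmt and Tdh of the same list had no count.

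Chaperones and proteins of the endoplasmic reticulum took 1.25 ± 0.0948%, led by the prolyl isomerase Ppia (3583 ± 699 CPM) and the chaperones Hspe1 (1852 ± 244 CPM) and Hspa8 (1260 ± 97.3 CPM). Lysosome and V-ATPase genes took 0.781 ± 0.0999%, with Cd63 (1521 ± 255 CPM), Atp6v1g1 (759 ± 170 CPM) and Atp6v0e (705 ± 109 CPM) ahead. Proteasome and ubiquitin genes took 0.634 ± 0.0875%. Their leading members included the polyubiquitin gene Ubb (714 ± 275 CPM) and the ubiquitin ligase subunit Rbx1 (533 ± 23.2 CPM), whose spread was below that of counting. The cytoskeleton and adhesion list took 0.932 ± 0.0653%, with cytoplasmic actin Actg1 (1613 ± 378 CPM), the actin-binding Tmsb4x (1391 ± 174 CPM) and the myosin light chain Myl12b (1302 ± 283 CPM) ahead. Secreted and plasma proteins took 0.933 ± 0.220%. Besides Gpx3 these were led by Rarres2, the precursor of chemerin (951 ± 241 CPM), and the selenium carrier Selenop (879 ± 413 CPM). The tubule injury markers Lcn2 and Havcr1 of this list had no count in any SAL library.

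**Figure D3:**
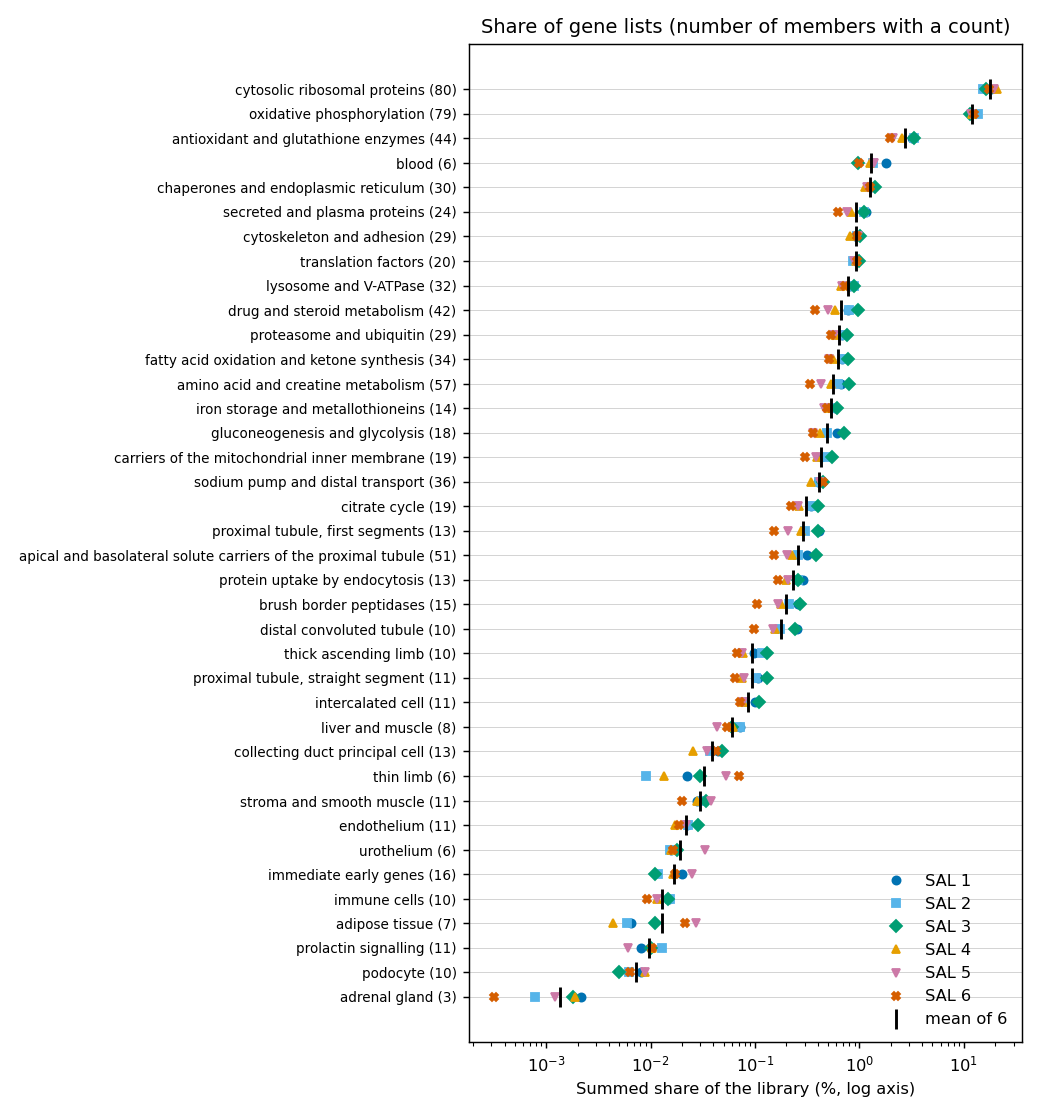
Summed share of the library (%, horizontal log axis) of the 38 gene lists, 1 symbol per library and a black bar for the mean of the 6, with the number of members that had a count in parentheses. Ribosomal proteins (mean 17.8%) and oxidative phosphorylation (12.1%) lie far to the right of the tubule lists, and the thin limb list spans 0.0091 to 0.0698%.

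The nephron's own transport and uptake genes took little of the reads each. The 13 marker genes of the first segments of the proximal tubule took 0.291 ± 0.104%, the largest share of any marker list other than blood. That share ran from 0.151% in SAL 6 (95% Wilson interval 0.138 to 0.165%) through a median of 0.286% to 0.409% in SAL 1 (0.389 to 0.431%), and its leading members included Fbp1 and Lrp2. Lrp2, or megalin, the receptor that takes up filtered protein, had 451 ± 167 CPM (lowest 263, median 402, highest 759 CPM). The 51 solute carriers of the proximal tubule with a count took 0.255 ± 0.0819%. Slc4a4, which moves bicarbonate and sodium from the cell to the blood side, had 251 ± 34.9 CPM. Slc7a13, an amino acid exchanger of the straight segment, had 223 ± 117 CPM and Slc6a18, a carrier of neutral amino acids, had 168 ± 96.1 CPM. The sodium and phosphate cotransporter Slc34a1 had 132 ± 82.0 CPM and the glucose carrier Slc5a2 had 76.6 ± 22.1 CPM. The last pair, and the defining genes Slc12a1, Slc12a3, Aqp2 and Nphs1 below, lay outside the rule for naming genes and were chosen with their values known.

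Protein uptake by endocytosis took 0.229 ± 0.0453%. Folr1, a folate receptor taken in together with megalin ligands, had 604 ± 101 CPM, and Lrpap1, the chaperone of megalin, had 379 ± 104 CPM. Brush border peptidases took 0.198 ± 0.0625%, from 0.104% in SAL 6 to 0.272% in SAL 3. Cltrn, or collectrin, which helps amino acid carriers reach the brush border, had 764 ± 361 CPM (lowest 230, median 745, highest 1237 CPM). In the same list, Lap3 had 435 ± 44.0 CPM and Ggt1, which cuts glutathione outside the cell, had 260 ± 101 CPM. The 11 markers of the straight segment took 0.0928 ± 0.0245%, with the water channel Aqp1 at 254 ± 53.7 CPM, Slc7a13, and Slc3a1, the partner chain of the cystine carrier, at 157 ± 76.7 CPM.

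Of the marker lists of tubule segments beyond the proximal tubule, that of the distal convoluted tubule took the largest share of reads. The thin limb list took 0.0327 ± 0.0237%. It was carried by Akr1b3, the aldose reductase that makes sorbitol in the medulla, with 250 ± 206 CPM, from 65.0 CPM in SAL 2 through a median of 190 CPM to 589 CPM in SAL 6. Sptssb (48.8 ± 28.7 CPM) and Cldn4 (24.2 ± 13.4 CPM) followed and were also lowest in SAL 2. The list thus spanned 7.67-fold among the libraries, and 5.75-fold without SAL 6.

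The thick ascending limb list took 0.0939 ± 0.0260%, from 0.0669% in SAL 6 to 0.131% in SAL 3. Cldn10, a claudin that lets sodium pass between cells, had 240 ± 94.8 CPM. Umod, or uromodulin, the main protein of normal urine, had 183 ± 109 CPM (lowest 83.2, median 156, highest 370 CPM), and Egf had 178 ± 56.1 CPM. The cotransporter Slc12a1 that defines this segment had 71.4 ± 23.5 CPM, and Ptger3 of the list had no count.

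Markers of the distal convoluted tubule took 0.177 ± 0.0587%. More than the defining salt cotransporter Slc12a3 (47.2 ± 15.8 CPM), this share rested on Klk1, a kallikrein released into urine, with 790 ± 443 CPM from 269 CPM in SAL 6 to 1395 CPM in SAL 1. Klk1b4 had nearly the same counts as Klk1. The calcium-binding proteins Calb1 and S100g had 539 ± 168 and 244 ± 66.2 CPM. Klk1, Calb1 and S100g thus held most of the share, and whether they mark only this segment was not tested. Sodium pump and distal transport genes together took 0.411 ± 0.0368%, with the pump subunit Atp1b1 (803 ± 90.2 CPM) ahead of Calb1.

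Intercalated cells, which secrete acid or base in the collecting duct, were represented with 0.0860 ± 0.0153%, led by the proton pump subunit Atp6v1g3 (457 ± 123 CPM), the carbonic anhydrase Car2 (225 ± 28.7 CPM) and the channel Aqp6 (80.0 ± 26.2 CPM). Principal cells, which take up water and sodium there, had a list share of 0.0388 ± 0.00801%. Fxyd4, a regulator of the sodium pump, had 105 ± 48.3 CPM, Rhcg had 78.5 ± 53.1 CPM and Apela had 44.0 ± 15.7 CPM. The vasopressin-sensitive water channel Aqp2 had 10.3 ± 7.89 CPM from 19 counts over the 6 libraries. Counts on a mouse transcript depend on how well hamster reads align to it, and the share that did not align was not analysed here.

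The glomerulus and the cells around the tubules held a small share of the reads. The 10 podocyte markers took 0.00725 ± 0.00159%, and of these Clic5 (16.4 ± 7.64 CPM) and Synpo (12.4 ± 4.49 CPM) were highest. Nphs1, the slit diaphragm protein nephrin, had 1 count in all. The endothelial list took 0.0219 ± 0.00380% with Egfl7 (50.3 ± 9.46 CPM), Pecam1 (39.2 ± 14.6 CPM) and Emcn (32.6 ± 15.1 CPM) ahead. Stroma and smooth muscle took 0.0296 ± 0.00601%, led by decorin Dcn (84.3 ± 34.9 CPM), Tagln (82.9 ± 12.2 CPM) and Col1a2 (49.0 ± 17.7 CPM). Immune cell markers took 0.0129 ± 0.00248%, led by Cd74 (45.9 ± 23.2 CPM), Lyz2 (22.3 ± 8.88 CPM) and Cd68 (18.4 ± 7.13 CPM), while S100a9 had no count. In bulk tissue, fewer cells of a type and less RNA per cell cannot be told apart.

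Markers of blood took 1.29 ± 0.309%, from 0.959% in SAL 3 through a median of 1.31% to 1.81% in SAL 1. Globin accounted for nearly all of it, with 4349 ± 965 CPM on Hbb-bs, nearly the same counts on Hbb-bt, and 2130 ± 611 CPM on Hba-a1. Hba-a2 had a mean of 772.5 counts per library beside 776 for Hba-a1. The summed share may therefore count the same reads more than once, which was not tested. The share of blood was lowest in SAL 3, where many tubule lists were highest, and highest in SAL 1, where the first proximal segments were highest too. Adipose markers took 0.0127 ± 0.00943%, from 0.00432% in SAL 4 to 0.0272% in SAL 5, mostly from Fabp4 (102 ± 76.8 CPM), with Cidec at 11.6 ± 6.48 CPM and Adipoq at 4.86 ± 8.34 CPM. Urothelial markers took 0.0190 ± 0.00695%, with Upk3a (146 ± 43.1 CPM), Upk1a (25.9 ± 22.8 CPM) and Upk1b (12.4 ± 10.3 CPM) ahead. Of the adrenal list, 3 of 10 genes were listed, and Hsd3b1 (10.1 ± 6.12 CPM), Cyp11a1 and Cyp21a1 took 0.00137 ± 0.000717% together. The liver and muscle list took 0.0602 ± 0.0110%, which rested on Ttr (382 ± 104 CPM) and Tnnt3 (209 ± 52.9 CPM), while Mylpf had 5.06 ± 5.68 CPM and each of Alb, Fga, Serpina1a and Ckm had 1 count.

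Prolactin was the hormone given to the other group of the experiment, and the gene of its receptor was barely counted in the vehicle group. The prolactin receptor gene Prlr had 6 counts in all, in 3 of the 6 libraries, with 10.4 CPM in SAL 2, 4.57 CPM in SAL 3, 3.06 CPM in SAL 5 and no count in the other 3. A count of 0 allows up to 8.11 CPM in SAL 1, 5.64 CPM in SAL 4 and 9.60 CPM in SAL 6. The value of SAL 2 lay above these limits but itself rests on few counts, and a difference among these animals was not tested. The 11 prolactin signalling genes took 0.00964 ± 0.00233%, led by the growth hormone receptor Ghr (39.4 ± 14.8 CPM), Stat3 (18.3 ± 5.56 CPM) and Cish (8.54 ± 10.1 CPM). The renin gene Ren1 had 1 count, in SAL 4. Cadherin 2 (Cdh2), an adhesion protein of tubule cells, had 38.9 ± 17.9 CPM from 82 counts, with 8.11 CPM in SAL 1, a median of 42.6 CPM and 61.2 CPM in SAL 5. The list of immediate early genes took 0.0169 ± 0.00518%, led by Jund (24.8 ± 17.8 CPM), Jun (22.7 ± 11.7 CPM) and Ier3 (18.8 ± 6.54 CPM).

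The question of how far the 6 libraries agreed was taken up next. Over the 15 pairs of libraries, the Spearman correlation of counts across all genes with a count was between 0.755 and 0.847, with a median of 0.811. Across the 3060 genes with a mean of at least 10 counts it was between 0.756 and 0.917, with a median of 0.880. The pairs without SAL 6 had a median of 0.893 in the genes with a mean of at least 10 counts of those 5 libraries. These correlations are across genes, which are not independent replicates. No pair of libraries was a copy of another, since the chi-square per degree of freedom of their counts was at least 2.66 in every pair, with a median of 6.48, where counting error alone gives about 1. The 30 genes highest in a single library shared 21 to 26 with the 30 of the mean, and the 100 highest shared 84 to 94. SAL 6 had the lowest number in both.

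Spread beyond counting was measured with the index of dispersion, the chi-square of the counts of a gene over the 6 libraries divided by its degrees of freedom. An index of about 1 is what counting error gives. Of the 3060 genes with a mean of at least 10 counts, 1806 had an index over 2, so that the background share is 59%. The median index was 2.49. Because the index grows with the depth of a gene, 79 of the 80 ribosomal protein genes and 70 of 77 tested genes of oxidative phosphorylation passed it as well, although their relative spread was small.

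The CV of the share, with the counting part taken off, allows genes of unlike depth to be set side by side. Over the 981 genes with a mean of at least 50 counts its median was 18.1%, and the middle of the genes lay between 11.9 and 26.8% (25th and 75th percentile). For the same genes without SAL 6 the median was 15%. With all 6 libraries, the median CV of list members was 11.5% for translation factors (13 genes), 14.1% for oxidative phosphorylation (70 genes), 15% for ribosomal proteins (80 genes), 15.3% for proteasome and ubiquitin (17 genes) and 17.3% for lysosome and V-ATPase (14 genes), all under 18.1%. Chaperones (18.4%, 18 genes) and cytoskeleton (19.5%, 11 genes) lay just above it. Lists of tubule functions covered a wide range. The intercalated cell list had 15.6% (2 genes), protein uptake 25.5% (6 genes), sodium pump and distal transport 26.5% (6 genes) and the distal convoluted tubule 30.3% (3 genes). Higher values were found for the first segments of the proximal tubule (36.2%, 5 genes), brush border peptidases (37.3%, 3 genes), the thick ascending limb (37.9%, 3 genes), drug and steroid metabolism (38.0%, 10 genes), the straight segment (46.9%, 3 genes) and the solute carriers of the proximal tubule (49.0%, 4 genes). Without SAL 6, the last 6 lists had 31.0, 23.6, 40.7, 36.3, 33.1 and 35.2% in the same order. The values for translation factors, oxidative phosphorylation and ribosomal proteins were then 6.89, 12.8 and 14.1%. For the intercalated cell, protein uptake, sodium pump and distal convoluted tubule lists they were 13.2, 24.9, 19.5 and 28.1%. The straight segment and solute carrier lists share Slc7a13 (51.0% with all 6 libraries) and Slc3a1 (46.9%), so their medians are not separate observations. Their other members with 50 counts differed, with 55.6% for Slc6a18, 18.1% for Aqp1 and 8.61% for Slc4a4. Most of the lists had few members with 50 counts, and the members share animals and reads, so the medians are a description of these libraries.

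**Figure D4:**
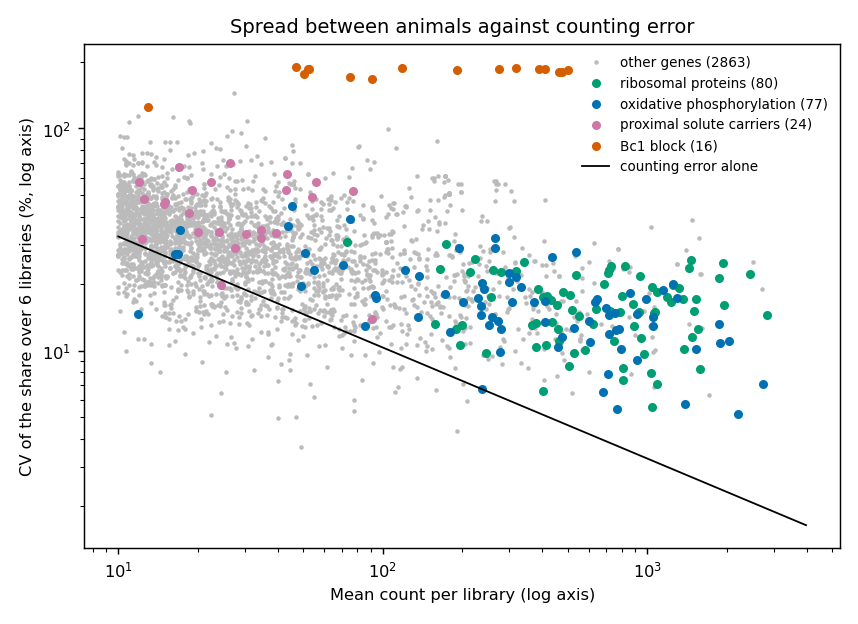
CV of the share over the 6 libraries (%, vertical log axis, counting part included) against the mean count per library (horizontal log axis) for the 3060 genes with a mean of at least 10 counts, 1 point per gene, with the CV that counting error alone would give as a line. The 16 genes highest in SAL 6 (orange, named after Bc1) stand above all other genes with the exception of Rnf145, and most solute carriers of the proximal tubule (pink) lie above the line and above most ribosomal protein and respiratory genes.

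Of the 981 genes with a mean of at least 50 counts, 39 had a spread no larger than counting error would give. The 8 furthest below it were Gm52186, Psma6, Trappc2l, Supt4a, Ube2l3, Supt4b, Psmb4 and Abat. Genes with few counts can fall further below it, so these 8 are not the genes with the smallest CV. With counting included, Rbx1 had a CV of 4.36% and Psmb4 had 11.6%. Psma6 and Psmb4 are subunits of the proteasome core, Ube2l3 conjugates ubiquitin, and Abat breaks down the transmitter GABA. Psma6, for example, had 148 ± 10.5 CPM, with 135 CPM in the lowest and 162 CPM in the highest library. For each of the 8 genes the spread among libraries was smaller than counting error would give, so that no spread beyond counting was detectable at this depth.

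The 8 genes with the highest spread were Cnot3, Gm51748, Gm32262, Kif3a, Iho1, Lrrc17, Gm38625 and Akap5, with CVs of 184 to 186%. All were among the 16 genes that stood out in SAL 6. Akap5, an anchoring protein for protein kinase A, had 211 to 707 CPM in 5 libraries and 7390 CPM in SAL 6. Lrrc17 had 176 to 621 CPM and 6107 CPM in the same libraries. Bc1, a short noncoding RNA known from rodent neurons, belonged to the 16 as well, with 227 to 799 CPM in 5 libraries and 6856 CPM in SAL 6. Within the 5 other libraries, the summed share of the 16 genes was lowest in SAL 1 (0.164%) and highest in SAL 5 (0.519%). The 16 genes are named by mouse gene models of no shared function known from the labels, and whether their counts come from reads of a single kind was not tested. Without these 16 genes, 1785 genes passed the index limit, and the mean shares of ribosomal proteins and of oxidative phosphorylation were 18.0% and 12.2%.

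Apart from these genes, SAL 6 was the library in which genes of the proximal tubule and its metabolism most often had their lowest value. Of the 3060 genes with a mean of at least 10 counts, 917 had their lowest CPM in SAL 6, a background share of 30%. Among the tested members of the lists this held for 20 of 25 drug and steroid metabolism genes, 17 of 24 solute carriers of the proximal tubule, 8 of 10 markers of its first segments, 9 of 12 mitochondrial inner membrane carriers, 22 of 42 genes of amino acid and creatine metabolism and 14 of 27 genes of fatty acid oxidation. Tubule lists outside the proximal tubule were mixed, with 4 of 5 markers of the distal convoluted tubule, 3 of 7 of the thick ascending limb (as many as in SAL 5), 2 of 7 of principal cells, none of 2 of the thin limb, and 6 of 19 sodium pump and distal transport genes. Of the gluconeogenesis and glycolysis genes, 5 of 16 were lowest in SAL 6 and 6 in SAL 5. It held for 22 of 80 ribosomal protein genes and 21 of 77 genes of oxidative phosphorylation, close to the background. When the libraries were scaled with TMM (trimmed mean of M values, a scaling that leaves out genes with extreme ratios), 748 genes or 24.4% were lowest in SAL 6. The numbers were then 18 of 25, 16 of 24, 6 of 10, 9 of 12, 20 of 42 and 14 of 27 for the first 6 lists in the same order, 10 of 80 for ribosomal proteins and 12 of 77 for oxidative phosphorylation. Members of a list need not be separate observations. In the drug and steroid list, Cyp4a12a and Cyp4a12b had the same mean count (42.8) and the same CV (73.3%, counting included). Whether its Ugt1a genes share reads was not tested.

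The ratio of the highest to the lowest library was 2.72 for the first segments of the proximal tubule, 2.62 for brush border peptidases, 2.58 for drug and steroid metabolism, 2.51 for solute carriers and 2.34 for amino acid and creatine metabolism. Without SAL 6 these ratios were 1.96, 1.65, 1.95, 1.88 and 1.85, and SAL 5 was then lowest in each of these lists. Scaled with TMM over all 6 libraries, they were 2.47, 2.26, 2.19, 2.13 and 1.98. A wide span was also found beyond the proximal tubule. The distal convoluted tubule list had a ratio of 2.58 (1.70 without SAL 6, 2.35 with TMM). The thin limb list had 7.67 (5.75 without SAL 6, 9.03 with TMM). The thick ascending limb, principal cell and intercalated cell lists had 1.96, 1.87 and 1.52. Translation factors (1.14), oxidative phosphorylation (1.19) and ribosomal proteins (1.39) spanned less, and TMM widened these to 1.28, 1.30 and 1.57.

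**Figure D5:**
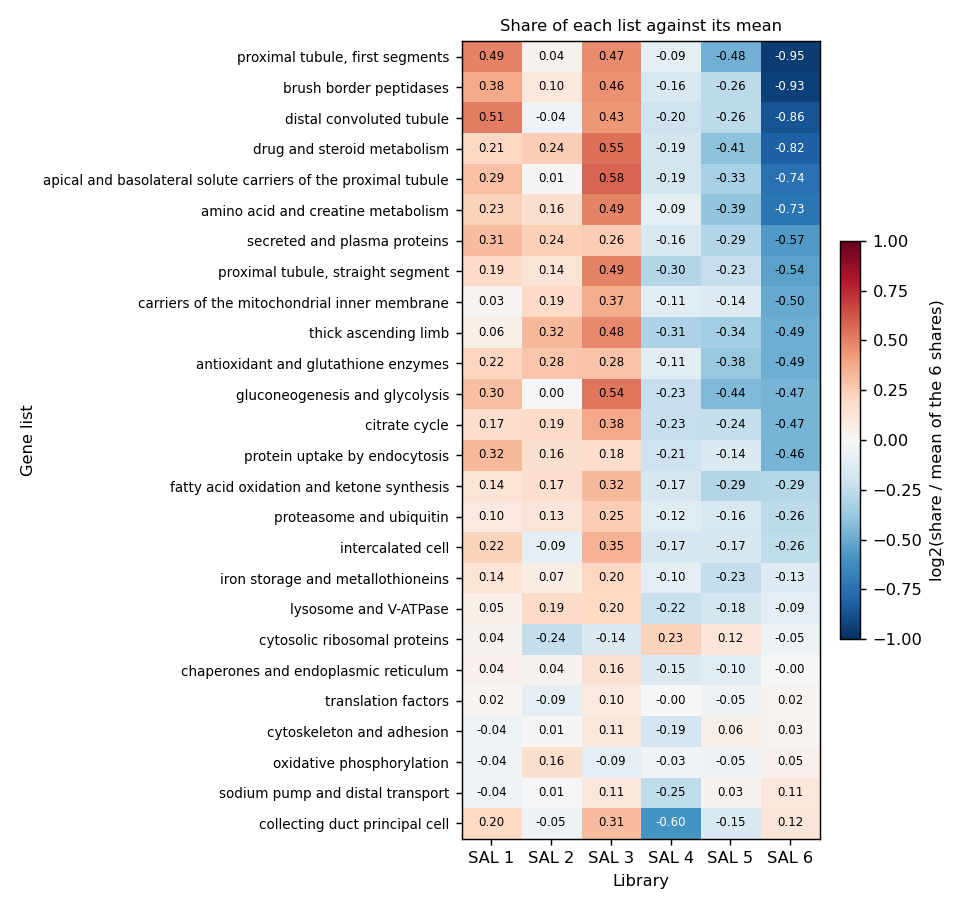
Log2 of the share of a list in a library over its mean share in the 6 libraries (colour and printed value), for 26 lists (rows) and the 6 libraries (columns). The rows at the top, which are mostly lists of the proximal tubule and its metabolism, are positive in SAL 1 and SAL 3 and negative in SAL 5 and SAL 6, whereas ribosomal proteins, translation factors and oxidative phosphorylation stay within 0.25 of the mean.

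Whether the shares of nephron segments moved together over the animals was tested with 4 correlations over the 6 libraries, with exact two-sided permutation tests over all 720 pairings. The first segments of the proximal tubule and the thick ascending limb had a Pearson r of 0.783 (exact p = 0.0792, Benjamini-Hochberg adjusted 0.317) and a Spearman rho of 0.829 (exact p = 0.0583, adjusted 0.233). Without SAL 1 and SAL 6, the libraries farthest from the median, r was 0.876. For the proximal tubule and the principal cells r was 0.429 (exact p = 0.410, adjusted 0.546) and rho was 0.543 (exact p = 0.297, adjusted 0.474), with r = 0.725 without the 2 farthest libraries. The thick ascending limb and the principal cells gave r = 0.528 (exact p = 0.289, adjusted 0.546) and rho = 0.486 (exact p = 0.356, adjusted 0.474), with r = 0.362 without SAL 2 and SAL 3. The proximal tubule and oxidative phosphorylation gave r = -0.317 (exact p = 0.561, adjusted 0.561) and rho = -0.314 (exact p = 0.564, adjusted 0.564), with r = -0.148 without the 2 farthest libraries. None of the 4 relations passed an adjusted p of 0.05. All libraries were sequenced on 1 flow cell together with the PRL group, and the labels give no batch within it, so that no value within batches could be formed.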

How the data were processed

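Kidney RNA of 6 SAL animals was reverse transcribed and sequenced on a nanopore flow cell. The methods name a direct cDNA kit and the labels a PCR-cDNA kit. The authors used Guppy for basecalling, Porechop for adapters, Filtlong for read selection and Minimap2 for alignment to mouse, and the deposited values are estimated counts for RefSeq transcripts, with no scaling. Salmon is also named in the submitters' processing notes, with no role. Of 429540 values in these libraries, 1636 were not whole. A library total over all transcripts was 2.09 to 2.31 times the total used here, so that a read may be counted more than once.

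The transcript with the highest total was kept for each gene (Python 3.11.15, pandas 2.3.3, scipy 1.17.1). TMM sizes came from edgeR 4.0.16 and size factors from DESeq2 1.42.0. The index of dispersion used genes with a mean of at least 10 counts and a limit of 2, and the CV used genes with a mean of at least 50. Near-identical genes had counts within 5% in every library. The only tests were exact permutation tests of 4 correlations. The index and CV were tested on simulated data. Intervals and limits cover counting error only.

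The named genes were the 30 highest, the 3 highest members of each list, every member without a count, Prlr, Ren1 and Cdh2. The 8 highest and 8 lowest values of the squared CV less its counting part were named too. Some of the genes this rule names are not reported here. The members and lists were chosen with earlier results of these data known. Samples were grouped by their titles. The 6 libraries are 6 animals. The table of experiment 1 was not used here.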

Additional observations from a re-analysis of the deposited data

Results flagged for a closer look

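In each of 165 values (38 list shares, the library total and the 126 named genes with a mean of at least 10 counts), the highest and the lowest library were compared with the other 5 by Dixon's ratio, and 12 had a library far from the rest. Chance flags about 1 in 20 values. Of the 12, 8 are genes that were named for their high CV, so that a library far from the rest was built into their choice. Without these, 4 of 157 values (2.55%) had such a library, fewer than that chance rate. The share of the urothelium list was 0.0330% in SAL 5 and 0.0153 to 0.0178% in the other 5 libraries. Upk1a (67.3 CPM) and Upk1b (30.6 CPM) of that list also had their highest value in SAL 5. Etfb, a subunit of the electron transfer flavoprotein, had 1059 CPM in SAL 6 and 554 to 726 CPM elsewhere, while Etfa, the other subunit, had its lowest value there (275 CPM). The metallothionein gene Mt1 had 146 CPM in SAL 1 and 49.0 to 76.8 CPM in the other libraries. Ghr, the growth hormone receptor, had 67.6 CPM in SAL 2 and 24.5 to 40.5 CPM in the others.

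The remaining 8 values all belong to the 16 genes that took 5.17% of SAL 6. In that library Akap5 had 7390 CPM, Lrrc17 had 6107 CPM, Gm32262 had 5774 CPM and Cnot3 had 4782 CPM. Gm38625 had 4055 CPM, Gm51748 had 1767 CPM, Iho1 had 784 CPM and Kif3a had 781 CPM. None of these 8 genes was over 707 CPM in any of the other 5 libraries. Since the 16 genes moved together, their flags are not separate observations, and the cause was not tested.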

How the results depend on the processing

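Summing a gene over every transcript gave the 10 highest genes 8.81%, the 100 highest 31.4%, ribosomal proteins 14.7% and oxidative phosphorylation 9.32%, and it moved 23 of the 36 other lists (11 up, 12 down). Counting near-identical genes once moved 6 of these 36 lists by more than 1 SD, and oxidative phosphorylation took 13.2% with Atp5md and Atp5mpl added to its list. Both were chosen after seeing the data, as were the ratios scaled with TMM or DESeq2 and the removal of the 16 genes high in SAL 6. The median Spearman correlation was 0.880 in genes with a mean of at least 10 counts, and the median Pearson correlation of log2(CPM + 1) was 0.855. The share of genes with an index over 2 was 56.4% with TMM, 56.5% with DESeq2 size factors, 85.1% (835 genes) with a mean of at least 50 counts, 21.9% (3162 genes) without a filter and 84.2% (5048 genes) with all transcripts added. With all transcripts added, r reversed to -0.108 for the proximal tubule and principal cells, to -0.301 for the thick ascending limb and principal cells and to 0.146 for the proximal tubule and oxidative phosphorylation, and the mean log2 share of members gave 0.40 for the last. With TMM, these r were 0.164, 0.258 and -0.738 in the same order. The cause was not tested. No relation passed an adjusted p of 0.05 in any alternative.

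Leaving out 1 library at a time gave 51.8 to 61.0% of genes past the index (1615 to 1830 genes), a median Spearman correlation of 0.805 to 0.812, 6.97 to 7.29% for the 10 and 34.9 to 36.2% for the 100 highest genes, 17.2 to 18.4% for ribosomal proteins and 11.8 to 12.2% for oxidative phosphorylation. The lowest share past the index came without SAL 6. In the same ranges r was 0.676 to 0.898 for the proximal tubule with the thick limb, 0.184 to 0.778 with principal cells and -0.734 to -0.0857 with oxidative phosphorylation, and 0.231 to 0.756 for the thick limb with principal cells. Shares per transcript length, which had been planned, were not run because no transcript lengths were used here. No paired analysis was possible because only the SAL group was described and no groups were compared. Depth limits genes under about 10 counts, the hormone receptor and most podocyte genes among them.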

Other observations

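Beyond the genes and lists of the report, the genes with the next highest CV fell on different libraries. This group was chosen with its values known, and it is given as values with no test. Nupr1, a stress-induced chromatin protein, had 155 CPM in SAL 3, a median of 191 CPM and 931 CPM in SAL 6. Ifi27l2b and Ifi27l2a, members of an interferon-induced family, were also highest in SAL 6, with 1299 and 861 CPM against medians of 319 and 226 CPM.

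Some enzymes of drug and fat metabolism in this group showed the opposite order. Cyp2c66 and Cyp2c65, cytochrome P450 enzymes, had 44.8 and 57.6 CPM in SAL 6 and 607 and 644 CPM in SAL 3. Ugt1a1, a glucuronidation enzyme, ran from 106 CPM in SAL 6 to 443 CPM in SAL 3. The fatty acid oxidation enzymes Acaa2 (134 to 950 CPM) and Acadm (70.4 to 406 CPM) were likewise lowest in SAL 6 and highest in SAL 3. Their list as a whole was lowest in SAL 5 (0.509%) and had 0.511% in SAL 6. Of its 27 tested genes, 14 were lowest and 5 were highest in SAL 6. SAL 3 was the shallowest library, with 219043 counts. The small nucleolar RNA Snord3b1 followed neither order, with 229 CPM in SAL 2, a median of 372 CPM and 991 CPM in SAL 5, and several copies of it had the same counts.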
